A study of Mus musculus with 2 samples.

Results

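The genes of the mitochondrial ribosomal proteins were taken as those whose current or older symbol starts with Mrpl or Mrps followed by a digit and that had a probe set annotated to exactly 1 gene. This gave 77 of the 18193 genes measured, and 157 of the 34945 probe sets with 1 gene. Mrpl30 and Mrpl53 also carry such a symbol, but their probe sets are shared with another gene, and they were left out. Of the 77 genes, 76 have such a symbol today. The other one is Lactb, which was once named Mrpl56 and encodes a filament-forming protein of the mitochondrial intermembrane space that is related to serine proteases and is no ribosomal protein.

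Expression was measured on 2 Affymetrix mouse arrays, a 3′ expression platform, with RNA of primary mouse neonatal ventricular cardiomyocytes (mNVCM), isolated from C57BL6/J pups 2 days after birth. Both cultures were kept for 1 h in medium with 0.5% FBS and received 1 μM Dox, the anthracycline doxorubicin. One of them was first pre-incubated for 3 h with hAFS-CM_Hypo, the medium conditioned by human amniotic fluid stem cells under hypoxia and pooled over donors, so that the comparison is hAFS-CM_Hypo + Dox against Dox. The labels give 6 h of Dox for hAFS-CM_Hypo + Dox and 21 h for Dox, whereas the paper describes the same exposure time for both. By the labels, the conditioned medium and the hours of Dox therefore cannot be told apart. There was 1 array per condition, so the differences below come without replicates, errors or tests, and describe these 2 arrays only. mNVCM are a mixed primary culture. All 10 cardiomyocyte markers examined lay at or above 9.78 on the log2 scale on both arrays. Fibroblast markers ran from Tcf21 (6.15 on the hAFS-CM_Hypo + Dox array and 7.18 on the Dox array) up to abundant ones such as Col1a2 (11.79 and 11.81).

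The mitochondrial ribosome translates the few messenger RNAs that mitochondrial DNA encodes, all of them for subunits of the oxidative phosphorylation (OXPHOS) complexes. Its ribosomal RNAs come from mitochondrial DNA, but every one of its proteins is encoded in the nucleus, made in the cytosol and imported. The large subunit joins amino acids and releases the growing chain through an exit tunnel at the inner membrane, and the small subunit holds and decodes the messenger RNA. Many of these proteins descend from bacterial ribosomal proteins, and others were added during the evolution of mitochondria. The heart depends on oxidative phosphorylation, and mutations in several of these genes cause cardiomyopathy in infants.

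Since these genes are transcribed in the nucleus, the regions before their transcription starts are shown first. RefSeq on GRCm38.p6 gave a promoter window, from 250 bases before to 50 bases after the start, for 68 of the 77 genes. The 4 stretches below are the 100 bases before the start of genes that recur in the results. Capitals mark matches, on either strand, to the letters of NRF1 (GCGCANGCG) or of the ETS family, to which GABP belongs (CCGGAAG). All 4 stretches carry a match and are not typical in this. Most of the other genes have no match in these 100 bases, among them Mrps18b, Mrpl11 and Mrps36. NRF1 and GABP are known as activators of nuclear genes for mitochondrial proteins. Mrpl12 encodes a stalk protein, Mrpl22 a protein of the exit tunnel, and Mrpl17 and Mrps27 were among the genes with the highest log2 ratios.
Mrpl12, chr11:120484537-120484636, plus strand: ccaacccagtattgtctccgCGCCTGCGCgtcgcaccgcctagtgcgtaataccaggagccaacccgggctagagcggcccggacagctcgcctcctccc
Mrpl22, chr11:58171564-58171663, plus strand: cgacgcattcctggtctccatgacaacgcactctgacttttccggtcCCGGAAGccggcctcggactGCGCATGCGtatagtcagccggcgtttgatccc
Mrpl17, chr7:105811088-105811187, minus strand: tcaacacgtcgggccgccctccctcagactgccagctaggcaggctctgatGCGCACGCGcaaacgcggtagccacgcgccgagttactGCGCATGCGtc
Mrps27, chr13:99344686-99344785, plus strand: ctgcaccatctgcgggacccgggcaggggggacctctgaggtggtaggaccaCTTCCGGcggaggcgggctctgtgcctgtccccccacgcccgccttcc

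Most genes of the mitochondrial ribosome read slightly lower on the hAFS-CM_Hypo + Dox array than on the Dox array, and none of them by much. The log2 ratio of hAFS-CM_Hypo + Dox over Dox, read from each gene's probe set of highest mean signal, was below 0 for 64 of 77 genes (83.1%). Below 0 were 48.7% of all 18193 genes and 47.5% of the 6352 genes within the same range of mean level. The median of the 77 log2 ratios was -0.13, an 8.34% lower signal, and the middle of the distribution ran from -0.20 at the lower quartile to -0.04 at the upper. The median over all genes was 0.01, with quartiles of -0.13 and 0.15, and over the genes of the same level range it was 0.01.

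The shift was made of many small differences. Of the 77 genes, 69 differed by less than 1.2-fold between the arrays. A difference of 1.2-fold or more was found for 6 genes in the lower direction (7.79%), where 11% of all genes lay, and for 2 in the higher direction (2.6%), where 13.1% of all genes lay. At 1.1-fold, 36 of the 77 read lower, against 24.7% of all genes, and 6 higher, against 26.8%. None of the 77 differed by 2-fold, the threshold of the study, which 0.72% of all genes reached in either direction. All log2 ratios lay between -0.40 and 0.42. Without Lactb, 64 of 76 genes were below 0, with a median of -0.13.

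**Figure D1:**
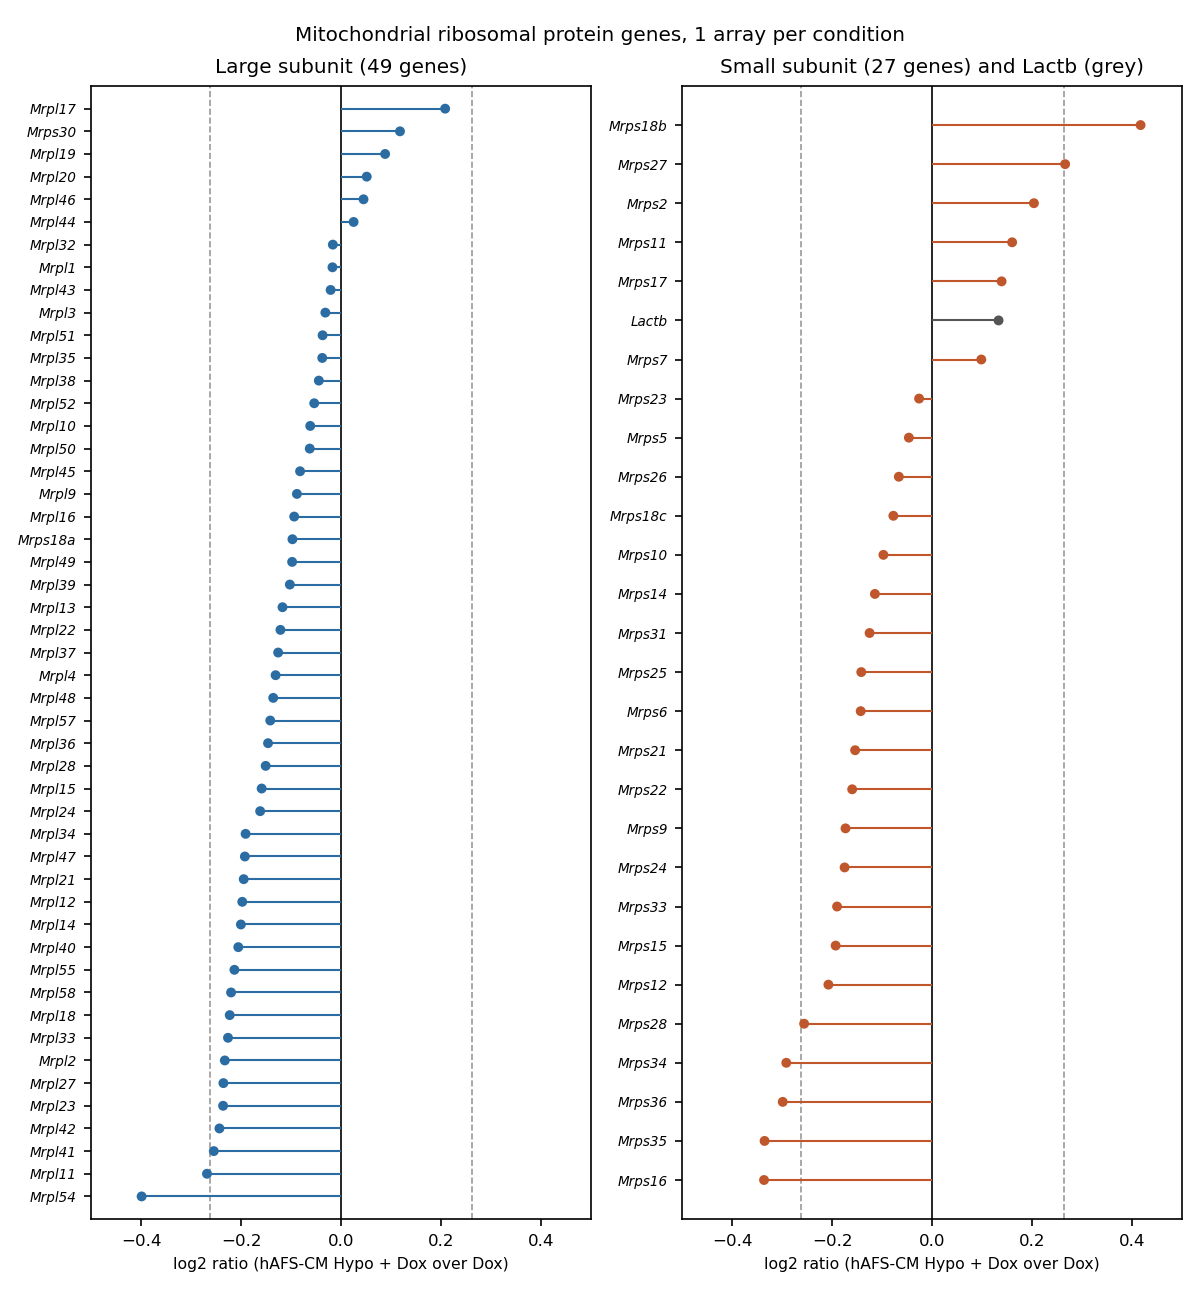
The log2 ratio of hAFS-CM_Hypo + Dox over Dox (x axis) for each gene of the mitochondrial ribosome, with the 49 genes of the large subunit on the left and the 27 of the small subunit on the right, where Lactb is shown in grey. Points are single values from 1 array per condition, dashed lines mark 1.2-fold, and 43 genes on the left and 21 on the right lie below 0.

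All 77 genes had signals in the upper range. Their log2 values ran from 7.63 to 12.71 on the hAFS-CM_Hypo + Dox array, with a median of 10.14, and from 7.67 to 12.95 on the Dox array, with a median of 10.30. Each of them was above the median of all probe sets, which was 5.10 on both arrays. In the plot of cumulative shares, the curve of these genes stood above that of all genes over most of the range, and it was also steeper, with a smaller share of genes in both tails.

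**Figure D2:**
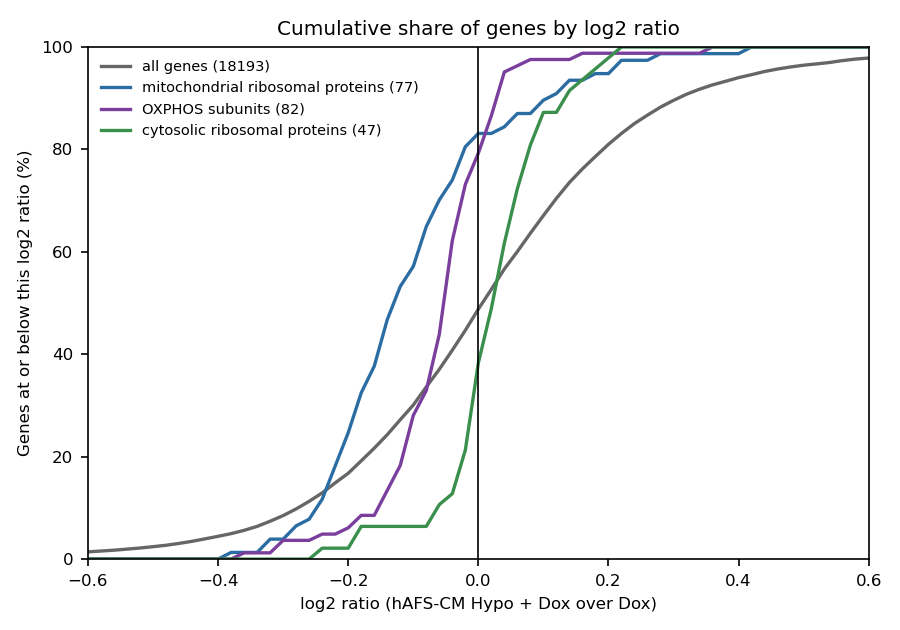
The share of genes at or below a given log2 ratio (hAFS-CM_Hypo + Dox over Dox, x axis, drawn from -0.6 to 0.6) for all 18193 genes, the 77 genes of the mitochondrial ribosome, 82 OXPHOS subunits and 47 cytosolic ribosomal proteins. At a ratio of 0 the curve of the mitochondrial ribosome stands at 83.1%, that of OXPHOS subunits at 79.3%, that of all genes at 48.8% (genes at exactly 0 included) and that of cytosolic ribosomal proteins at 38.3%.

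Both subunits had similar medians. In the large subunit, 43 of 49 genes were below 0 and the median log2 ratio was -0.13. In the small subunit, 21 of 27 were below 0 and the median was -0.14, and both genes that read 1.2-fold or more higher, Mrps18b and Mrps27, belong to it. Mrps30 and Mrps18a were counted with the large subunit, where structures of the mitochondrial ribosome place their proteins. Descent made little difference to the counts. Of the proteins with a bacterial counterpart, 37 of 45 genes were below 0 with a median of -0.14, and of those without one, 27 of 31 with a median of -0.13. Mrps18a was listed with the latter for its place in the large subunit, although it is related to a bacterial protein of the small subunit. Counted with the former, the numbers are 38 of 46 and 26 of 30, with medians of -0.14 and -0.13.

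The lowest log2 ratio was that of Mrpl54, which encodes a large subunit protein without a bacterial counterpart. It read 10.11 on the hAFS-CM_Hypo + Dox array and 10.51 on the Dox array, a log2 ratio of -0.40. Its other probe set, with a weak signal of 4.17 and 4.35, gave -0.18. Next came Mrps16, a small subunit protein whose loss impairs mitochondrial translation in humans, with 9.97 and 10.31 on the same arrays and a ratio of -0.34.

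Mrps35 read 9.20 on the hAFS-CM_Hypo + Dox array and 9.53 on the Dox array (log2 ratio -0.34). Mrps34, which is needed for a stable small subunit, read 10.65 and 10.94 (-0.29). Mrps36 read 11.04 and 11.33 (-0.30). The protein of Mrps36 has since been assigned to the 2-oxoglutarate dehydrogenase complex of the citric acid cycle, so it may not be counted as a ribosomal protein. A further probe set that Mrps34 shares with its neighbour Nme3 gave -0.64 and was not used.

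Mrpl11, at the base of the stalk, was the last of the 6 genes past 1.2-fold, with 10.52 on the hAFS-CM_Hypo + Dox array and 10.79 on the Dox array (log2 ratio -0.27). Its 4 probe sets did not point one way, as they gave -0.27, -0.11, 0.01 and, with a weak signal (4.12 and 3.91), 0.21. Just short of 1.2-fold were Mrps28, with 10.54 and 10.80 (-0.26), and Mrpl41, with 10.13 and 10.39 (-0.25). The 3 probe sets of Mrpl41 ranged from -0.25 to 0.04, the latter with a weak signal (3.81 and 3.77).

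Among the genes that read higher, Mrps18b stood apart. It read 9.08 on the hAFS-CM_Hypo + Dox array and 8.66 on the Dox array, a log2 ratio of 0.42. Mrps18b is 1 of 3 mammalian relatives of a single bacterial protein, and the other two were on the opposite side of 0. Mrps18a gave -0.10 (10.06 and 10.16) and Mrps18c gave -0.08 (10.91 and 10.99). Each of these 3 genes was measured by a single probe set, and Mrps18a and Mrps18c are named after their values were seen.

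Mrps27, a pentatricopeptide repeat protein of the small subunit, read 8.33 on the hAFS-CM_Hypo + Dox array and 8.06 on the Dox array (log2 ratio 0.27). Mrpl17, a large subunit protein with a bacterial counterpart, read 10.69 and 10.49 (0.21), and its 3 probe sets all lay above 0, from 0.08 to 0.23. Its other probe sets had much weaker signals, of 5.24 and 5.17 (0.08) and of 4.95 and 4.72 (0.23). Mrps2 read 8.90 and 8.70, with 0.14 and 0.20 at its 2 probe sets. Of the 42 genes with more than 1 probe set, Mrpl17 and Mrps2 were the ones with every probe set above 0.

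The remaining high values were smaller. Mrps11 gave 0.16 (9.99 and 9.83), with -0.04 at its other, weaker probe set. Mrps17 gave 0.14 (10.28 and 10.14), Lactb 0.13 (9.84 and 9.71) and Mrps30 0.12 (10.22 and 10.10). In the small subunit, 6 of 27 genes were thus above 0, and in the large subunit 6 of 49.

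By the site of the proteins in the ribosome, the median of every group listed lay below 0. The stalk recruits the translation factors, and its genes gave -0.06 for Mrpl10, -0.27 for Mrpl11 and -0.20 for Mrpl12, all 3 below 0. Mrpl12 read 10.89 on the hAFS-CM_Hypo + Dox array and 11.09 on the Dox array. At the exit tunnel, 5 of 6 genes were below 0, with a median of -0.11. The lowest there was Mrpl23 (-0.24, with 11.44 and 11.68), followed by Mrpl24 (-0.16), Mrpl22 (-0.12), Mrpl39 (-0.10) and Mrpl45 (-0.08), which anchors the ribosome to the inner membrane. Mrpl44 gave 0.03.

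The central protuberance is the part of the large subunit that faces the head of the small one. Of its genes, 4 of 5 were below 0 with a median of -0.14, from -0.22 for Mrpl18 and -0.21 for Mrpl40 through -0.14 for Mrpl48 and -0.04 for Mrpl38 to 0.05 for Mrpl46. At the decoding centre and the entry of the messenger RNA, Mrps12 gave -0.21 (10.14 and 10.34), Mrps24 gave -0.18 (11.81 and 11.99) and Mrps5 gave -0.05 (7.63 and 7.67). Ptcd3, a mitochondrial ribosomal protein with a symbol of another kind, gave -0.08. Mrpl58 is a peptidyl-tRNA hydrolase built into the large subunit that also rescues stalled ribosomes, and it is added here after its values were seen. It gave -0.22 (10.13 and 10.35), against 0.05 at a weaker probe set.

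The 4 genes whose mutation causes cardiomyopathy in humans showed small differences. Mrps22 gave -0.16 (10.14 and 10.30) at its single probe set. Mrps14 gave -0.11 (11.73 and 11.85), but 0.14 at another probe set (8.06 and 7.92) and 0.19 at a weak one (3.86 and 3.66). Mrpl3 gave -0.03 (9.99 and 10.02) and Mrpl44 0.03 (9.17 and 9.14), and the probe sets of both lay on either side of 0. The median of the 4 was -0.07.

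The probe sets of a gene show how far single ratios differ within the arrays. Among the 42 genes with more than 1 probe set, the log2 ratios from different probe sets of a gene had an SD of 0.17 (122 probe sets). It does not measure the variation between cultures. By this SD or more, 27 of the 77 genes read lower, where 20.3% of all genes did, and 4 read higher, where 22.5% of all genes did. All probe sets were below 0 for 15 of the 42 genes (35.7%), all were above 0 for 2, and they lay on both sides for 25. Of all 9010 genes with more than 1 probe set, 21.4% had every probe set below 0 and 23.1% every probe set above 0.

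Over single probe sets, 108 of 157 were below 0 (68.8%), against 49.4% of all probe sets with 1 gene. The share was higher among probe sets with a stronger signal. Of the 134 that reached the median of all values on the higher array, 100 were below 0 (74.6%), and of the 23 that did not, 8 were below 0. Shares of all probe sets split by signal are not given here. Whether this dependence on signal is particular to these genes therefore cannot be told. The widest disagreements involved such dim probe sets in some genes and not in others. Mrpl51 gave -0.04 at a strong probe set (11.63 and 11.66), 0.09 at another, and -0.64 at a dim one (4.14 and 4.78). Mrpl13 gave -0.12, -0.29, -0.26 and, at a dim probe set (3.04 and 2.78), 0.25. Mrpl28 gave -0.15, -0.19 and, with a strong signal (9.76 and 9.43), 0.33. Mrpl3 gave -0.03, -0.24, 0.01 and 0.32.

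**Figure D3:**
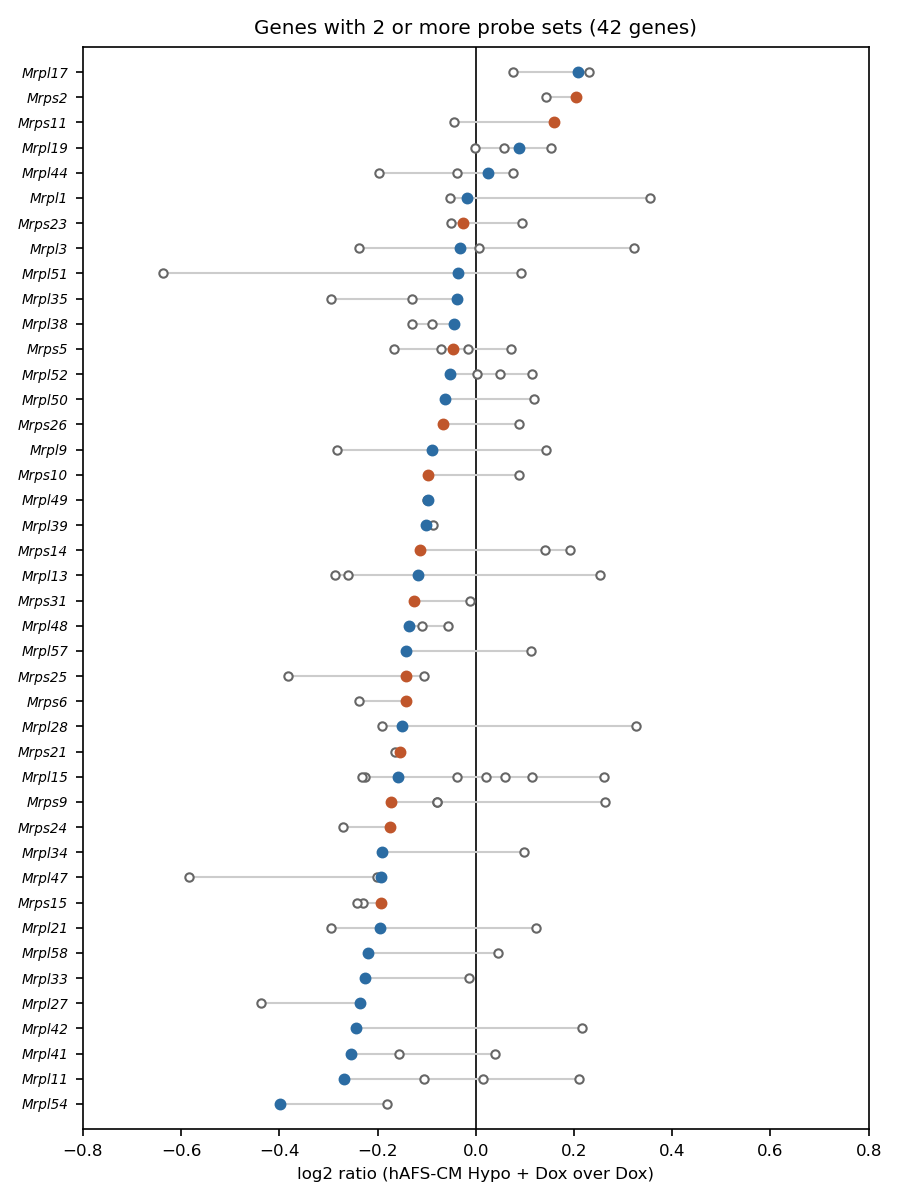
Log2 ratios (hAFS-CM_Hypo + Dox over Dox, x axis) of all probe sets of the 42 genes with more than 1. Filled points are the probe set with the highest mean level, blue for the large and orange for the small subunit, open points are the others, and the grey lines span each gene. All probe sets lie below 0 for 15 genes and above 0 for 2.

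The other nuclear genes of mitochondrial translation did not show the same lean to one side. Of 11 translation factors, 6 were below 0, with a median of -0.0015. The lowest of them was Mtrf1l, a release factor that ends translation (-0.27, with 7.61 on the hAFS-CM_Hypo + Dox array and 7.88 on the Dox array). Tufm, the elongation factor that brings aminoacyl-tRNA to the ribosome, gave 0.14 (10.98 and 10.85), with -0.12 to 0.15 over its 4 probe sets. Mtfmt, which formylates the initiator tRNA, gave 0.14, but -0.15 at its other probe set.

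Of 26 genes for assembly of the ribosome and modification of its RNA, 12 were below 0, and the median was 0.02. By 1.2-fold, 4 read lower and 2 higher. Ptcd1 gave -0.64 (6.63 and 7.27), but -0.04 at its other probe set. Mtg1, a GTPase of large subunit assembly, gave -0.33, and Nsun4, a methyltransferase of the small ribosomal RNA, gave 0.54 with -0.19 to 0.54 over its 3 probe sets. Of 16 mitochondrial aminoacyl-tRNA synthetases, which charge the tRNAs, 7 were below 0 with a median of 0.04. Pars2 gave 0.76 (6.42 and 5.65), Tars2 -0.35 and Ears2 -0.23. Of 11 genes for transcription and maintenance of mitochondrial DNA, 4 were below 0 with a median of 0.03, from -0.22 for Tefm and -0.20 for Polg2 to 0.29 for the helicase Twnk.

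The genes of 4 more ribosomal proteins were measured, whose older names carry a hyphen and so escaped the choice by symbol. Dap3 gave -0.02, Chchd1 -0.04, Ptcd3 -0.08 and Gadd45gip1 -0.11, all 4 below 0. This list was added after the annotation was seen, and Dap3 is named beyond the 3 genes per list.

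The nuclear-encoded subunits of the OXPHOS complexes also leaned to the lower side. Of 82 genes, 65 were below 0 (79.3%), with a median of -0.05 that was closer to 0 than the -0.13 of the mitochondrial ribosome. The lowest were Ndufs7 (-0.37), Ndufb10 (-0.30), both of complex I, and Sdhd (-0.30) of complex II, a complex without any product of the mitochondrial ribosome. Of 47 cytosolic ribosomal proteins, 18 were below 0 (38.3%), with a median of 0.02, and none differed by 1.2-fold. The lowest of these was Rpl37 (-0.25). These lists were not matched in signal level to the mitochondrial ribosome. Many of their genes read higher than any gene of it, such as Atp5b (13.98 on the hAFS-CM_Hypo + Dox array and 14.02 on the Dox array) and Rplp0 (14.34 and 14.35). A few stood on dim probe sets, such as Cox7c (3.21 and 3.35) and Rps16 (3.37 and 3.35). The difference between the lists was not tested, as genes are not replicates.

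**Figure D4:**
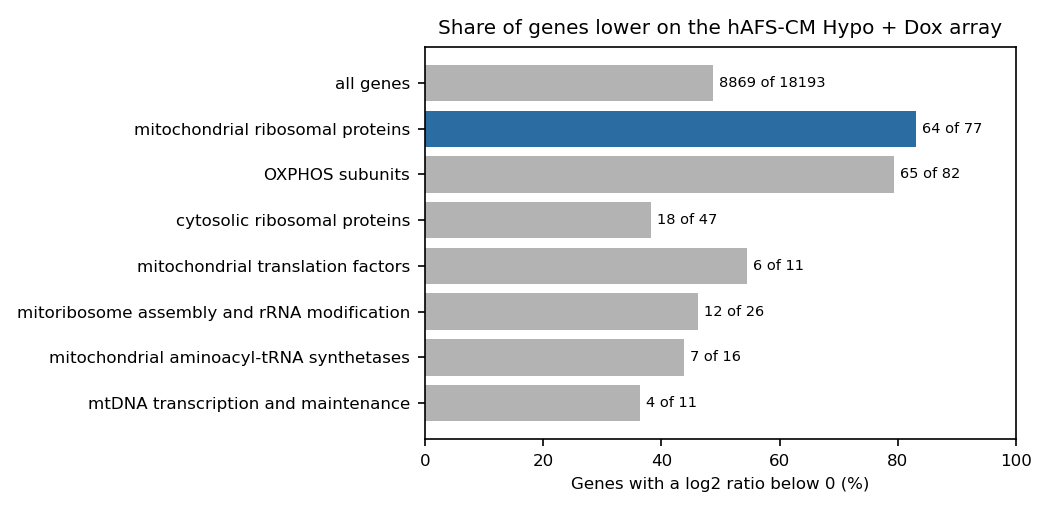
The share of genes with a log2 ratio below 0 (x axis, in percent, from 1 array per condition) for all genes and for 7 lists, with the number below 0 of the number measured beside each bar. The mitochondrial ribosome (64 of 77) and the OXPHOS subunits (65 of 82) have the highest shares.

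Of 9 regulators of nuclear genes for mitochondrial proteins, 5 were below 0 with a median of -0.07, and 1 differed by 2-fold. This was Ppargc1a, which encodes the coactivator PGC-1α. It read 6.35 on the hAFS-CM_Hypo + Dox array and 7.45 on the Dox array, a log2 ratio of -1.10, and all of its 5 probe sets lay below 0, from -1.10 to -0.41. Myc gave 0.54, and Pprc1, a relative of PGC-1α, gave 0.31. Among the genes of factors whose motifs were searched, Nrf1 gave 0.05 (6.46 and 6.41), Gabpa -0.07 (9.31 and 9.38) and Yy1 -0.09. Gabpb1, also of GABP, gave 0.18. Esrra, of the ERR family, gave -0.25, and its 2 probe sets lay on either side of 0, at -0.25 and 0.25. All of these were named after their values were seen.

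Markers of the cell types in the culture differed as well. The median log2 ratio of the 10 cardiomyocyte markers was -0.11, with 9 of 10 below 0, and their summed signal was 17.55 on the log2 scale for hAFS-CM_Hypo + Dox and 17.65 for Dox. Fibroblast markers had a median of -0.13 (5 of 7 below 0, summed signal 13.90 and 13.94). They spread widely, from -1.03 for Tcf21 to 0.79 for Pdgfra. Macrophage markers had a median of 0.33 (4 of 5 above 0, summed signal 9.84 and 9.61). Smooth muscle (0.13, 3 of 4 above 0), endothelium (0.03, 3 of 5 above 0) and epicardium (0.23, 2 of 3 above 0) had medians above 0. The summed signal of smooth muscle and of endothelium was also higher on the hAFS-CM_Hypo + Dox array. That of epicardium was lower on this array, and its strongest marker, Upk3b, gave -0.33. The 2 erythroid markers measured were under the median of all values on both arrays. The cardiomyocyte and fibroblast medians were both close to that of the mitochondrial ribosome, and the part of cell type shares in the ratios was not tested. In RNA of whole cultures, fewer cells of a type and less RNA per cell cannot be told apart.

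The promoter windows of these genes differed in their letters from those of all protein-coding genes. The letters of ETS/GABP were found, on either strand, for 25 of the 68 genes (36.8%) and for 12.9% of 17492 protein-coding genes with a window. Those of NRF1 were found for 15 (22.1% against 9.63%), and those of YY1 (AAGATGGC) for 12 (17.6% against 3.57%). At least 1 of these 3 motifs was present for 42 of the 68 genes (61.8%), against 22.8% of all. The letters of ETS/GABP end and those of YY1 begin with AAG, so that 1 run of bases can match both, which was the case for 0 of the 68 genes. The median GC content of the windows was 58.5% for the 68 genes and 56.3% for all.

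Most other motifs had shares nearer to those of all genes. Sp1 (GGGCGG) was found for 51.5% against 49.2%, the E-box (CACGTG) for 7.35% against 8.91%, and CCAAT for 38.2% against 42.3%. The TATA box (TATAAA) was less frequent in these genes, at 7.35% against 14.8%. The letters of ERR (TCAAGGTCA), which binds with PGC-1α, were found in none of the 68 windows and for 0.377% of all genes. A match is a description of the sequence and not a site of binding, and a missing match says only that these letters are not in this window.

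The positions of matches were counted for these genes only, so no share over all promoters stands beside them. The zone counted here covers much of the window, which runs from 250 bases before to 50 after the start. Of 29 ETS/GABP matches, 26 were between 100 bases before and 50 after the start, with a median of -17, counted from 0 at the start. The 23 NRF1 matches had a median of -38, and the 12 YY1 matches one of +15, just inside the transcript. In the sequences printed above, Mrpl22 carries both motifs, Mrpl17 carries NRF1 at 2 places, and Mrpl12 and Mrps27 carry 1 motif each on the opposite strand. The log2 ratios did not separate by these motifs. The median was -0.11 for the 42 genes with at least 1 of the 3 (36 below 0) and -0.13 for the 26 without (20 below 0). It was -0.09 with and -0.14 without NRF1, -0.14 with and -0.11 without ETS/GABP, and -0.10 with and -0.13 without YY1.

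**Figure D5:**
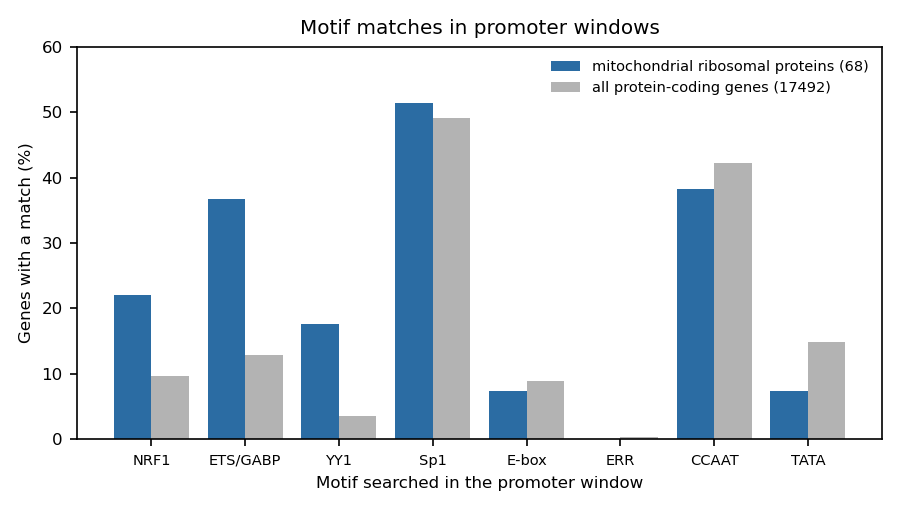
The share of genes (y axis, in percent) with at least 1 match to each motif, on either strand, in the window from 250 bases before to 50 after the start, for the 68 genes of the mitochondrial ribosome with a window and for 17492 protein-coding genes. NRF1, ETS/GABP and YY1 have a higher share among the 68 genes (22.1%, 36.8% and 17.6%) than among all (9.63%, 12.9% and 3.57%).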

How the data were processed

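RNA of mNVCM was hybridised to 1 array per condition. The authors deposited 1 log2 value per probe set, made by RMA, which both the paper's methods and the submitters' processing notes name. The software version is not given in the sources used here. The log2 scale was inferred from the range of values, 2.37 to 15.05. The sorted columns of both arrays differed by at most 0.07, and Pearson's r between them was 0.995 over 45101 probe sets.

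The platform's annotation gave 1 gene for 34945 probe sets, 34741 of which were matched by Entrez ID to RefSeq genes on GRCm38.p6. Probe sets with several genes (932) or none (9211) and 64 control probe sets were not used. The log2 ratio of hAFS-CM_Hypo + Dox over Dox was computed from the deposited values, and each gene was represented by its probe set of highest mean signal. No test was made, since there was 1 array per condition. Precision is limited by the number of arrays. The threshold of 1.2-fold only describes the ratios.

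The genes, lists and thresholds were chosen with earlier results of these data known. The genes named are the 8 highest and 8 lowest log2 ratios, every gene past 1.2-fold, those whose probe sets differed by more than 0.5, those of the role lists, and up to 3 genes of each other list. Markers and examples of signal level are named besides, and genes added after their values were seen are marked where they appear. Promoter windows came from RefSeq and were searched on both strands. Opposite starts were sought from 1000 bases before to 100 after a start. The choice of a value per gene and the counts past 1.2-fold were tested on simulated data, with noise below the SD between probe sets. The searches of promoter windows and of opposite starts were not part of that test. Alternatives were the mean of all probe sets, the probe set with the largest change, leaving out less specific probe sets, filters at the median (5.10) and the 25th percentile (3.80) of all values, centring, lowess correction (span 0.3), current symbols only, and thresholds of 1.1-fold, 1.5-fold and 2-fold. The tools were numpy 2.4.6 and pandas 2.3.3 under Python 3.11.15, with matplotlib 3.10.9 for plots and statsmodels 0.14.6 for lowess.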

Additional observations from a re-analysis of the deposited data

How the results depend on the processing

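The median log2 ratio of the 77 genes stayed below 0 under every alternative, from -0.14 to -0.09, as did those of the large (-0.14 to -0.09) and the small subunit (-0.16 to -0.08). Taking the mean of all probe sets of a gene brought the medians closest to 0, at -0.094 for all 77 genes, -0.0945 for the large and -0.078 for the small subunit. The counts past a fold threshold were the least stable. With the probe set of the largest change per gene, 22 genes were above 0, 6 read 1.2-fold or more higher and 15 lower. By its rule this choice favours larger ratios in any gene with more than 1 probe set. Leaving out less specific probe sets kept 63 genes, with 1 higher and 3 lower. Shares of all genes under these choices of probe set are not given here, and the shares given above do not apply to them. Counted as less specific was every probe set with a letter before the final _at of its name, such as _a_at, _s_at or _x_at. Mrps18b, Mrps16 and Mrps34 had only _a_at probe sets and so dropped out. Lowess correction left 1 higher. At 1.1-fold 6 genes read higher and 36 lower, and at 1.5-fold and 2-fold the counts were 0 and 0. Among the 38 named genes the sign of the ratio depended on the probe set chosen for Mrps14 (0.07 as the mean, 0.19 at the largest change), Mrpl28 (0.33), Mrpl3 (0.32), Mrpl44 (-0.20) and Mrpl51 (0.09 without less specific probe sets, -0.64 at the largest change), and Mrpl11 moved to -0.04 as the mean. No paired analysis was possible because each condition has 1 array.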

Other observations

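Many genes of the mitochondrial ribosome start near the start of a gene on the other strand. Of the 68 genes with a start in RefSeq (GRCm38.p6), 24 (35.3%) had the start of another protein-coding gene on the opposite strand between 1000 bases before and 100 after their own, against 8.66% of 17492 protein-coding genes. Mrpl46 and Mrps11 are such a pair, and run away from each other from starts 42 bases apart. Both read higher on the hAFS-CM_Hypo + Dox array (log2 ratios 0.05 and 0.16). Leaving out Mrpl46 and Mrps11 themselves, 22 such genes were measured, of which 13 were below 0, and the median was -0.02.

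Single pairs differed. Mrps27 (0.27) lies opposite Ptcd2 (-0.13), and Mrps18b (0.42) opposite Ppp1r10 (-0.01). Mrpl43 (-0.02) lies opposite the helicase gene Twnk (0.29), and Mrps12 (-0.21) opposite the synthetase gene Sars2 (0.03). Mrpl47 (-0.19) and the complex I gene Ndufb5 (-0.06) were both below 0. These pairs were named after their values were seen.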
